A study of Mus musculus with 9 samples.

Results

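The 10 genes described here encode the main enzymes of glycolysis, one for each step from glucose to pyruvate: Hk1, Gpi1, Pfkl, Aldoa, Tpi1, Gapdh, Pgk1, Pgam1, Eno1 and Pkm. They were chosen by gene symbol, not by their measured values, and each matched 1 identifier, so the 10 members are 10 of 35275 identifiers in the count table. The libraries were made from mouse bone marrow megakaryocyte-erythrocyte progenitors (MEPs), sorted as Lin-ckit+CD34-FcγRII/IIIlo cells, with 25000 cells in each library. MEPs had been separated by the binding of HS3A8, a single-chain antibody fragment (scFv) that recognises modified heparan sulfate (HS) chains on the cell surface, into a high binding fraction (HS3A8-high, 3 libraries) and a low binding fraction (HS3A8-low, 3 libraries). In 3 control libraries the MEPs were mock-sorted with MPB49, an scFv without a known epitope. The labels name no genotype, treatment, strain or age, and the study's methods state only that mice were age- and sex-matched. The comparison asks how MEPs that differ in HS display differ in their transcripts.

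Glycolysis splits glucose into 2 molecules of pyruvate in the cytosol and yields ATP and NADH without oxygen. Hexokinase traps glucose, phosphofructokinase commits it to the pathway, aldolase and triose phosphate isomerase make and balance the triose phosphates, and the lower enzymes, from glyceraldehyde-3-phosphate dehydrogenase to pyruvate kinase, recover ATP. Mature red cells have no mitochondria and live on glycolysis alone, and the erythroid pyruvate kinase is encoded by Pklr rather than by Pkm, the gene used by most other cells.

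The libraries held between 11781637 and 15850037 counts. Erythroid marker transcripts (12 genes, among them Gata1, Klf1 and Epor) summed to between 11134 and 15468 CPM (counts scaled to a common library total) in every library, and Kit, a gate marker, lay between 379.7 and 807 CPM, while B cell markers (6 genes, Pax5 at 0 throughout) stayed at 1.37 to 13.5 CPM. Replicate 3 of both sorted fractions stood apart by granulocyte-monocyte markers (12 genes, among them Mpo, Elane and Lyz2), whose summed level was 1931 CPM in HS3A8-high replicate 3 and 4934 CPM in HS3A8-low replicate 3, against 10.2 to 263 CPM in the other 7 libraries. MPB49 control replicate 1 also stood apart: its counts differed from those of the other 2 controls by a chi-square of 196 and 149.8 per degree of freedom, against 9.61 between controls 2 and 3 and 16.6 to 63.3 within the sorted groups.

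Promoter sequences are shown first for 4 genes that were called between the fractions in the paired test described further on. The first 4 sequences belong to members and the last to Pklr. Tpi1, a member that also passed the paired test, had neither of the marked motifs. For Hk1 and Pklr the sequence before a second RefSeq start is not shown, and it held neither motif. They come from RefSeq (GRCm38.p6) and are the stretches, within the 250 bases before a RefSeq start, that lie outside annotated exons. Capitals mark GATAA, the core read by GATA factors of the erythroid lineage, and ACGTG, the core of the hypoxia response element. Both were searched on both strands, so a marked run can be the reverse complement.
Hk1, chr10:62379909-62380158, minus strand: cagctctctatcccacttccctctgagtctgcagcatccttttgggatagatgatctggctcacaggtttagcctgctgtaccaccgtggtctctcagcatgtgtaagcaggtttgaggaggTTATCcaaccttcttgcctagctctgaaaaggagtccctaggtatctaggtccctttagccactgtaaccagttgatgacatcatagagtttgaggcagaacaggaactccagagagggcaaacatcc
Pgam1, chr19:41911621-41911870, plus strand: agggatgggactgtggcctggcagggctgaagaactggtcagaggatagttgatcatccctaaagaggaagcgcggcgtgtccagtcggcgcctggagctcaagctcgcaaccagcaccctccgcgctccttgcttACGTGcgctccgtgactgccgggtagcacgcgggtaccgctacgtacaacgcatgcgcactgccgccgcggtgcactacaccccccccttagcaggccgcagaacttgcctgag
Pkm, first start, chr9:59656326-59656367, plus strand: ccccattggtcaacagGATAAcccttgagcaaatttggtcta
Pkm, second start, chr9:59656977-59657086, plus strand: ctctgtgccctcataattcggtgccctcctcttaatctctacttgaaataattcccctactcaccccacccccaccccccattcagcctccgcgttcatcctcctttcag
Pklr, first start, chr3:89135892-89136141, plus strand: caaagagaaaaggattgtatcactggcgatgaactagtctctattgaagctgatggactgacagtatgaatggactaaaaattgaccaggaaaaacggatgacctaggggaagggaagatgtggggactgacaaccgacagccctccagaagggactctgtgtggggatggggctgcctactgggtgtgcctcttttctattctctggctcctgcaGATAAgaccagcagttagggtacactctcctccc
All 10 members matched a RefSeq promoter, with 16 windows of 250 bases among them. GATAA was present in 3 of the 16 windows (18.8%), 1 each of Hk1, Aldoa and Pkm, against 22.6% of all 32851 mouse windows of this length. ACGTG was present in 5 of the 16 windows (31.3%), which belonged to Aldoa, Pgk1, Pgam1 and Pkm, against 16.6% of all windows. The Aldoa windows with it overlap, so the same site may be counted more than once. In Pkm it lay in the second window, outside the stretch printed above. CACGTG, an E-box that contains ACGTG, was in none of the 16 windows and in 6.02% of all windows. CACCC, the core read by Krüppel-like factors, was in 9 of the 16 (56.3%) and in 52.0% of all. Gene counts do not tell which start was used, and such short matches are a description of the letters only.

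All 10 genes were expressed in every library. Their summed level was 5192, 5652 and 5708 CPM in HS3A8-high (5517 ± 283, SD, n = 3), 4642, 4980.3 and 5149 CPM in HS3A8-low (4924 ± 258) and 3579, 5474 and 5077 CPM in the controls (4710.2 ± 999.5), after scaling by trimmed means (TMM) over the 9 libraries. On this TMM scale the HS3A8-high libraries were the highest of the sorted ones without overlap, and MPB49 control replicate 1 was the lowest of all. With DESeq2 size factors instead the fractions overlapped, with HS3A8-high replicate 1 at 5149.2 CPM and HS3A8-low replicate 3 at 5216.5 CPM. As a share of all counts the 10 genes took 0.515% to 0.564% in HS3A8-high, 0.497% to 0.524% in HS3A8-low and 0.323% to 0.557% in the controls, so on this scale the fractions overlapped.

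Between genes, levels were compared only as CPM per kilobase of the longest annotated transcript. On this scale Gapdh was the highest, at a mean of 465 over the 9 libraries, followed by Tpi1 (384), Aldoa (383) and Eno1 (358). Hk1 (176) and Pgk1 (96.0) came next, then Gpi1 (71.8) and Pfkl (71.6), with Pkm (45.1) and Pgam1 (29.8) at the foot of the order. Tpi1, Aldoa and Eno1 did not separate from the next of them in order in any of the 3 groups, since their ranges overlapped, nor did Gpi1 and Pfkl. Pkm held the lowest place in HS3A8-high (21.9 ± 29.6, SD, n = 3), lay between Pgk1 and Gpi1 in HS3A8-low (85.6 ± 42.6), and was next to Pgam1 in the controls (27.8 ± 10.6). The longest annotated Gapdh transcript has 3289 bases, and with the length of all exons of a gene instead the order of the 6 highest genes was unchanged while Pfkl and Gpi1 exchanged places and Pkm fell below Pgam1.

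In HS3A8-high against HS3A8-low, 7 of the 10 genes had higher levels in HS3A8-high and 3 (Gpi1, Pgam1 and Pkm) lower ones, but in the comparison that ignored replicate numbers none passed the threshold. The median log2 fold change of the 10 genes was 0.15, against -0.03 over all 11791 genes tested. By edgeR's quasi-likelihood test with Benjamini-Hochberg adjustment over all genes, 0 of 10 were called at an adjusted p under 0.05, while 451 genes (3.82%) were called across the table. Hk1, Pfkl and Tpi1 had an unadjusted p under 0.05, as did 2339 of the 11791 genes, and DESeq2's test also called 0 of 10, with 1229 of 18095 genes called in all. On the scale of this fit the groups did not overlap for Pfkl, Tpi1, Gapdh and Pkm, 4 of 10, where 27.8% of all genes did not overlap. Libraries with the same replicate number deviated together in the 2 fractions, and with the replicate number as a block 4 of the 10 genes were called, Hk1 and Tpi1 higher and Pgam1 and Pkm lower in HS3A8-high, against 11.6% of all genes in that fit. The fitted values and the differences within same-numbered libraries show small, even shifts for most of the pathway and a large shift for Pkm.

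**Figure D1:**
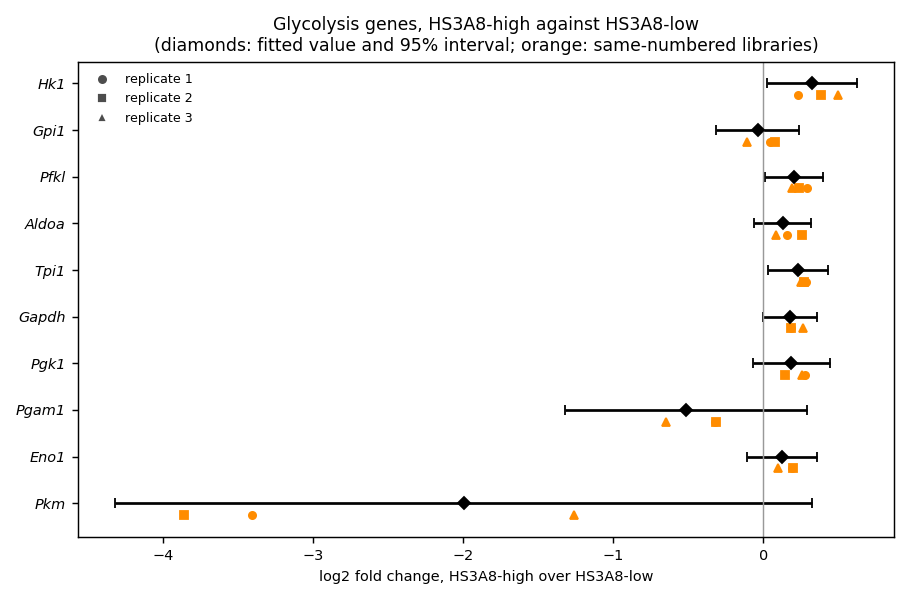
The log2 fold change of HS3A8-high over HS3A8-low is on the horizontal axis for the 10 genes in pathway order, with fitted values and 95% intervals as black diamonds and bars and the difference within each same-numbered pair of libraries as orange symbols. Hk1, Pfkl, Aldoa, Tpi1, Gapdh, Pgk1 and Eno1 lie to the right of 0 in 3 of 3 pairs, whereas Pgam1 and Pkm lie to the left in 3 of 3.

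Hk1 (ENSMUSG00000037012, chromosome 10, 62268855 to 62379908, minus strand, mm10) encodes the hexokinase that binds mitochondria and performs the first step. It was measured at 929, 918 and 803 CPM in HS3A8-high, at 792, 703 and 568 CPM in HS3A8-low, and at 371, 885 and 809 CPM in the controls. Every HS3A8-high library was above every HS3A8-low library, and control replicate 1 was the lowest of all 9. Scaled over the 6 sorted libraries alone, as in the fit, the edges overlapped, and the log2 fold change was 0.32 (SE 0.13, adjusted p = 0.222). With the replicate block Hk1 was higher in HS3A8-high by a log2 fold change of 0.33 (SE 0.07, edgeR adjusted p = 0.0331), and the 3 pairs gave 0.23, 0.38 and 0.50. Without replicate 3 of both fractions the log2 fold change was 0.29, with and without the block.

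Gpi1 (chromosome 7, 34201330 to 34230336), the isomerase of the hexose phosphates, was the member that differed least. Its levels were 217, 249 and 252 CPM in HS3A8-high, 211, 236 and 271 CPM in HS3A8-low and 164, 240.2 and 226 CPM in the controls. The 2 fractions overlapped fully (log2 fold change -0.04, 95% interval -0.31 to 0.24). The exons of Gm26762 on the other strand cover 11.5% of its exon length, and whether the counting used strand is not given in the sources used here.

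Pfkl (chromosome 10, 77986947 to 78010083), the liver-type subunit of the committed phosphofructokinase step, was at 319, 291 and 281 CPM in HS3A8-high and at 261, 247 and 247 CPM in HS3A8-low. The controls were at 158, 304 and 295 CPM. The fractions did not overlap, yet the difference was small, with a log2 fold change of 0.20 (SE 0.08, edgeR adjusted p = 0.227; 0.0912 with the block).

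Aldoa (chromosome 7, 126795234 to 126800751), which splits fructose bisphosphate, was at 601, 685 and 648 CPM in HS3A8-high, 539, 573 and 610.1 CPM in HS3A8-low and 442, 633 and 603 CPM in the controls. The highest HS3A8-low library exceeded the lowest HS3A8-high one (log2 fold change 0.13, SE 0.08). Tpi1 (chromosome 6, 124810586 to 124814296), which interconverts the triose phosphates, was at 635, 731 and 689 CPM in HS3A8-high against 522, 605 and 579.7 CPM in HS3A8-low, with 506, 652 and 633 CPM in the controls. The 2 fractions did not overlap for Tpi1. Its 3 pairs were nearly equal, at 0.28, 0.27 and 0.25 on the log2 scale, and its log2 fold change was 0.23 without the block (SE 0.08, edgeR adjusted p = 0.189) and 0.23 with it (SE 0.05, adjusted p = 0.0467). Without replicate 3 of both fractions it was 0.26, with and without the block.

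Gapdh (chromosome 6, 125161715 to 125166467), the oxidising step of the pathway and a common reference gene, was at 1558, 1733 and 1808 CPM in HS3A8-high and at 1369.9, 1527 and 1505 CPM in HS3A8-low. The controls were at 1098, 1657 and 1495 CPM. The fractions did not overlap, and the log2 fold change was 0.18 (95% interval -0.00 to 0.35, edgeR adjusted p = 0.263; 0.0719 with the block). Gapdh has 111 near-identical annotated genes, most of them pseudogenes, and the 100 of these in the table together held counts equal to 1.01% of its own. For the other 9 members that share was at most 2.09% (Pgam1), so reads that the counting placed on copies were few, while reads it discarded as ambiguous are unknown.

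Pgk1 (chromosome X, 106187100 to 106203699), which makes the first ATP of the lower pathway, was at 169, 188 and 199.9 CPM in HS3A8-high, 139.7, 170.1 and 167 CPM in HS3A8-low and 169, 195 and 179.5 CPM in the controls. It was the only member whose lowest library was neither a control nor an HS3A8-high library, and its log2 fold change was 0.19 (SE 0.11). Eno1 (chromosome 4, 150236721 to 150248879), the enolase that forms phosphoenolpyruvate, was at 716, 802 and 828 CPM in HS3A8-high, 627, 701 and 773 CPM in HS3A8-low and 594, 759 and 732 CPM in the controls. The fractions overlapped (log2 fold change 0.12, SE 0.10; 0.067 to 0.21 when HS3A8-low replicate 1 or replicate 3 was left out).

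Pgam1 (chromosome 19, 41911923 to 41918660), the phosphoglycerate mutase, ran the other way. Its levels were 36.4, 44.5 and 64.5 CPM in HS3A8-high, 45.7, 55.4 and 101 CPM in HS3A8-low and 35.6, 54.8 and 37.6 CPM in the controls. Replicate 3 was the highest of each sorted fraction, as it was for the granulocyte-monocyte markers, and the fractions overlapped. The log2 differences within pairs were -0.32, -0.32 and -0.65, and the log2 fold change was -0.51 (SE 0.34, edgeR adjusted p = 0.464) without the block and -0.47 (SE 0.11, adjusted p = 0.0439) with it. The unpaired value moved with replicate 3: it was -0.77 without that of HS3A8-high, -0.088 without that of HS3A8-low and -0.34 (edgeR adjusted p = 0.389) without both, and without both the paired value was -0.34.

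**Figure D2:**
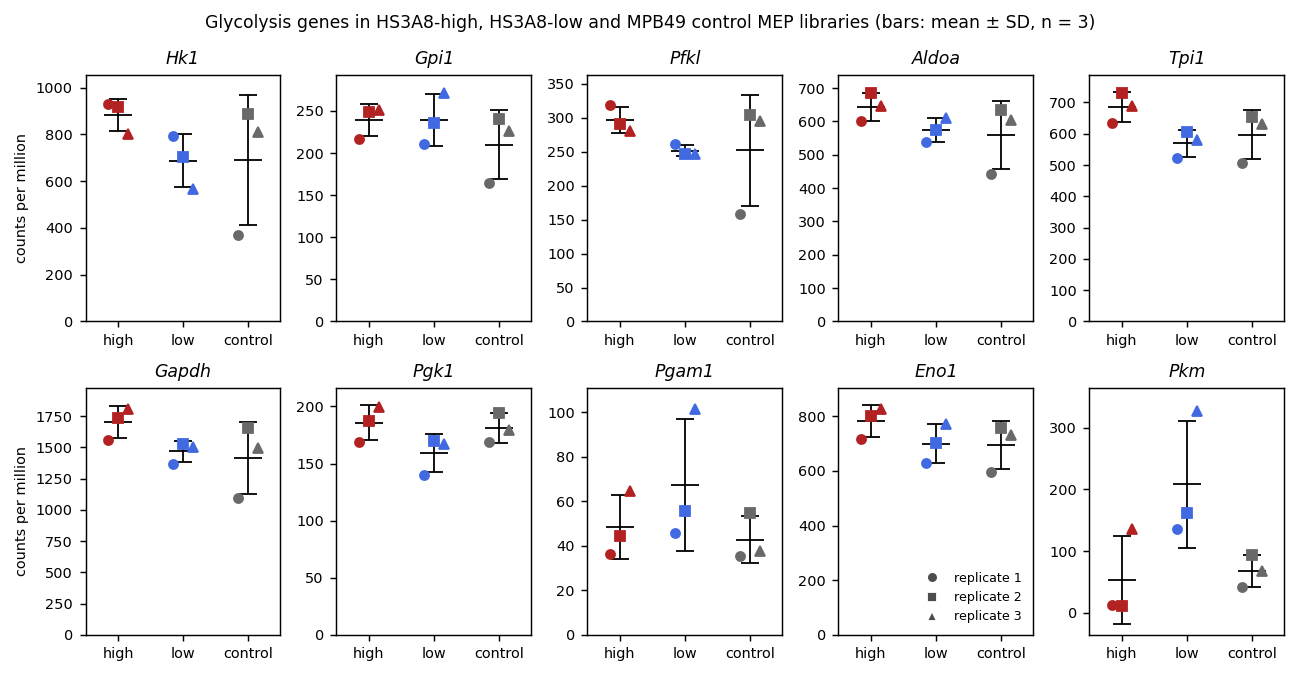
CPM values (vertical axes) of the 10 genes are plotted for HS3A8-high, HS3A8-low and MPB49 control libraries, with a symbol for each replicate and bars for the mean ± SD (n = 3). Most genes keep within a narrow band, with control replicate 1 (grey circles) low in most panels, while Pkm spans 11.0 to 327 CPM.

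Pkm (ENSMUSG00000032294, chromosome 9, 59656368 to 59679375, plus strand) encodes the M-type pyruvate kinases and was by far the most variable member. Its level was 12.7, 11.0 and 136 CPM in HS3A8-high, 136, 162 and 327 CPM in HS3A8-low and 42.1, 93.7 and 67.3 CPM in the controls. Replicate 3 was the highest library of each sorted fraction, and HS3A8-high replicate 3 (136.3 CPM) lay just above HS3A8-low replicate 1 (135.8 CPM), although scaled over the 6 sorted libraries alone the fractions did not overlap. Over the 8 libraries other than control replicate 1 the highest level was 29.7 times the lowest, wider than in 98.4% of the 9349 genes whose mean reached 5 CPM, whereas the range of the other 9 members was 1.27 to 2.78 times. The 3 pairs gave log2 differences of -3.41, -3.86 and -1.26. The log2 fold change was -2.00 (SE 0.98, 95% interval -4.32 to 0.32, edgeR adjusted p = 0.323) without the block and -2.79 (SE 0.51, adjusted p = 0.0259) with it. Without HS3A8-high replicate 3 it was -4.17 (adjusted p = 0.0108), and without replicate 3 of both fractions it was -3.67 (adjusted p = 0.00178). Exons of Gm49759 on the same strand cover 15.3% of the exon length of Pkm, and gene counts cannot separate its M1 and M2 transcripts.

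Pklr, which encodes the liver and red cell pyruvate kinase, changed in the opposite direction. It was at 152, 155 and 144 CPM in HS3A8-high, 109.6, 114 and 98.3 CPM in HS3A8-low and 80.8, 128 and 139.9 CPM in the controls. The HS3A8-high libraries exceeded all of the others, and against HS3A8-low the log2 fold change was 0.45 (SE 0.09, edgeR adjusted p = 0.0402; 0.0178 with the block). The unpaired call was lost when any 1 of the 6 libraries was left out (adjusted p = 0.0655 to 0.166) and when libraries were scaled by their totals (adjusted p = 0.0745) or fitted with the controls (adjusted p = 0.253), always with the same direction. Exons of Hcn3 cover 22.0% of the exon length of Pklr.

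Per kilobase, Pkm made up 9.04%, 7.79% and 53.1% of pyruvate kinase transcripts in the HS3A8-high libraries, 59.6%, 62.9% and 79.9% in the HS3A8-low libraries and 38.3%, 46.7% and 36.5% in the controls. On this scale Pklr was thus the main pyruvate kinase transcript in HS3A8-high replicates 1 and 2 and in the 3 controls, and Pkm in HS3A8-high replicate 3 and in all HS3A8-low libraries. The ratio of Pkm to Pklr was 0.0994, 0.0844 and 1.13 in the HS3A8-high libraries, 1.48, 1.69 and 3.97 in the HS3A8-low ones and 0.622, 0.876 and 0.574 in the controls. With the length of all exons the shares were lower, at 4.38% to 38.0% in HS3A8-high, 44.5% to 68.3% in HS3A8-low and 23.8% to 32.2% in the controls, and the fractions still did not overlap. Pkm was then the main transcript only in HS3A8-low replicate 3 (68.3%), with 44.5% and 47.9% in HS3A8-low replicates 1 and 2. Which transcript was the main one thus depended on the length used.

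**Figure D3:**
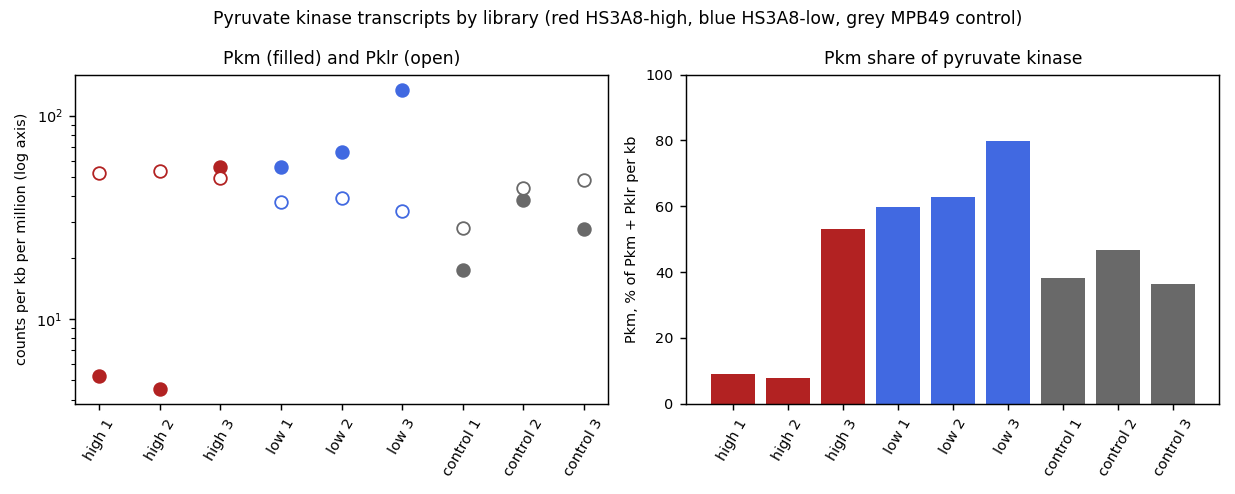
Left, CPM per kilobase (log axis) of Pkm (filled) and Pklr (open) are plotted for each of the 9 libraries; right, bars from 0 give Pkm as a percentage of both. HS3A8-high libraries 1 and 2 have Pkm shares of 9.04% and 7.79%, and no HS3A8-low library is below 59.6%.

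Markers of other cell types also differed between the fractions. Over all 11791 genes tested, 379 were called lower and 72 higher in HS3A8-high unpaired, and 975 lower and 392 higher paired. The 12 granulocyte-monocyte markers summed to 18.9, 10.2 and 1931 CPM in HS3A8-high, 121, 263 and 4934 CPM in HS3A8-low and 95.3, 202 and 154 CPM in the controls, and of the 10 that could be tested 10 had lower fitted levels in HS3A8-high, with 0 called unpaired and 5 called paired. The 11 megakaryocyte markers, among them Pf4, Itga2b and Gp9, summed to 59.1, 39.7 and 47.0 CPM in HS3A8-high, 454, 306 and 223 CPM in HS3A8-low and 274, 175 and 162 CPM in the controls, with 6 of 9 called lower in HS3A8-high. T and NK markers (4.35 to 32.7 CPM in HS3A8-high, 144 to 167 CPM in HS3A8-low, 43.9 to 102 CPM in the controls) and stem and multipotent markers (16.4 to 31.3 CPM, 137 to 173 CPM and 64.9 to 122 CPM) had the same order of groups, with 2 of 6 and 2 of 7 called lower. Erythroid markers lay between 14643 and 15468 CPM in HS3A8-high, 11134 and 12445 CPM in HS3A8-low and 12675 and 14309.6 CPM in the controls, with 1 of 12 called higher, and mitosis genes (8 genes, among them Plk1 and Ube2c) between 2162 and 2323 CPM, 1462 and 1688 CPM, and 1568 and 1950.0 CPM, with 3 of 8 called higher. The part of these cells in the levels of Pkm, Pgam1 and the other members was not tested; in bulk libraries fewer cells of a type and less RNA per cell cannot be told apart. In each sorted fraction Pkm and the granulocyte-monocyte markers were highest in replicate 3, and in HS3A8-low the megakaryocyte markers were lowest there. Pkm was at 136 CPM both in HS3A8-high replicate 3 and in HS3A8-low replicate 1, where granulocyte-monocyte markers were at 1931 and 121 CPM.

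Against the MPB49 controls, none of the 10 genes passed edgeR's test in either fraction. In HS3A8-high against control, 9 of 10 fitted values were above 0, with a median log2 fold change of 0.18 against -0.00 over all 11486 genes tested. By edgeR 0 of 10 were called and 0 had an unadjusted p under 0.05, DESeq2's test called 0 of 10, and 2 genes (0.0174%) were called across the table. None of the 10 genes had groups that did not overlap, against 14.0% of all genes. Gapdh had a log2 fold change of 0.25 (95% interval -0.18 to 0.68), Hk1 one of 0.35 (-0.38 to 1.07) and Pkm one of -0.35 (-2.57 to 1.88).

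In HS3A8-low against control, 5 of 10 fitted values were above 0 and the median log2 fold change was 0.01 (-0.00 over all 11878 genes). By edgeR 0 of 10 and 0 genes in all (0%) were called, with 673 genes at an unadjusted p under 0.05 and 95 called by DESeq2's test. On the scale of this fit Pkm and Pgk1 did not overlap between the groups, 2 of 10 against 12.8% of all genes. Scaled over the 9 libraries, Pgk1 did overlap, with HS3A8-low replicate 2 at 170.1 CPM and control replicate 1 at 169.0 CPM. Pkm was higher in HS3A8-low in each library, with a log2 fold change of 1.61 (SE 0.41, 95% interval 0.65 to 2.58, unadjusted p = 0.00532 by edgeR, adjusted p = 0.687). It was the 1 member with an unadjusted p under 0.05, and the 1 member called by DESeq2's test (log2 fold change 1.60, adjusted p = 0.0249). Pgk1 had a log2 fold change of -0.20 (SE 0.15). The comparisons share the control libraries.

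The control libraries differed among themselves mainly through replicate 1. That library was the lowest of the 9 for 8 of the 10 genes, all but Pgk1 and Pkm, and it was the lowest for 37.9% of the 9349 genes reaching a mean of 5 CPM. Its log2 level minus the mean of controls 2 and 3 had a median of -0.50 over the 10 genes, with Hk1 at -1.19 at one end and Pgk1 at -0.15 at the other, against a median of -0.13 over all of those genes. Without control replicate 1 the log2 fold change of Hk1 in HS3A8-high against control was 0.06, and that of Gapdh was 0.11. Without it the values in HS3A8-low against control were -0.30 for Hk1 and -0.25 for Pfkl, and 0 of 10 genes were called in either comparison.

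**Figure D4:**
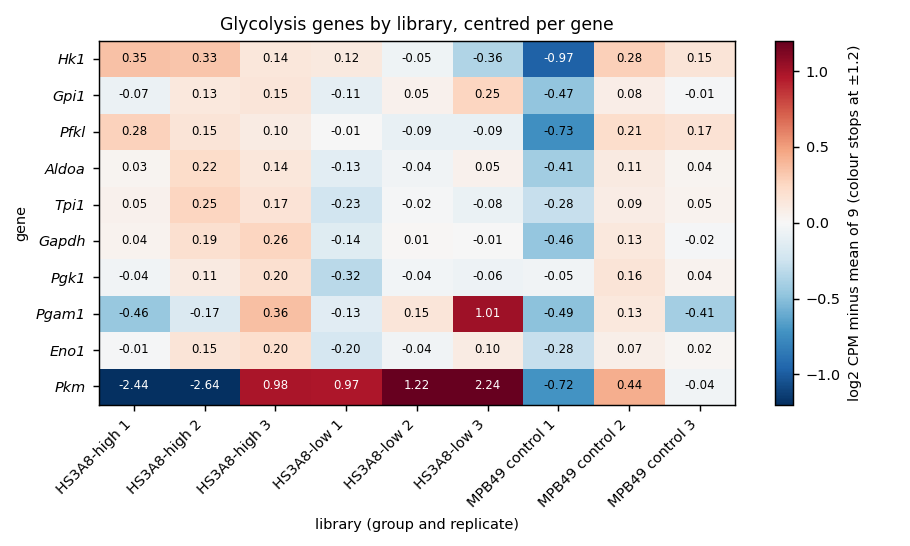
Each cell gives the log2 CPM of a gene (rows) in a library (columns) minus the mean of that gene over the 9 libraries, red above and blue below it. Control replicate 1 is below the mean for all 10 genes, and Pkm runs from -2.64 in HS3A8-high replicate 2 to 2.24 in HS3A8-low replicate 3.

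The other isozymes of the 10 steps were mostly scarce. Of 16 such genes 10 could be tested between the fractions, 1 (Pklr) was called higher without the block and 2 (Pklr and Pfkm) with it, and none was called lower, with a median log2 fold change of -0.07. Hkdc1 and Pgk2 had no count in any library. Hk1 made up 88.3% to 99.7% of hexokinase transcripts per kilobase, Aldoa at least 99.5% of aldolase, Gapdh at least 99.9% of its step and Eno1 94.7% to 97.4% of enolase. Pgam1 made up 96.4% to 97.9% of phosphoglycerate mutase in HS3A8-high and 90.4% to 96.6% in HS3A8-low.

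Phosphofructokinase was the step with 2 transcripts at near-equal level. Pfkl made up 47.5% to 53.5% of it in HS3A8-high and 49.2% to 54.4% in HS3A8-low, and Pfkm, the muscle-type subunit, most of the rest. Pfkm was at 202, 225 and 225 CPM in HS3A8-high, 156, 177 and 180.3 CPM in HS3A8-low and 123, 188 and 212 CPM in the controls. The fractions did not overlap, and its log2 fold change was 0.31 without the block (SE 0.09, edgeR adjusted p = 0.123) and 0.31 with it (SE 0.06, adjusted p = 0.0335).

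Hk3, the hexokinase of granulocytes, was at 0.445, 0.382 and 32.4 CPM in HS3A8-high and at 1.89, 12.4 and 53.6 CPM in HS3A8-low. In the controls it had no count in replicate 1, where 3 counts would be 0.270 CPM, and was at 7.82 and 5.59 CPM in the others. Its highest library in each fraction was replicate 3, as for the granulocyte-monocyte markers and Pkm, and the fractions overlapped. Hk2 had fitted differences of 0.07 (SE 0.49), Pfkp of -0.25 (SE 0.15), Bpgm, which makes the bisphosphoglycerate that lowers the oxygen affinity of haemoglobin, of -0.18 (SE 0.18), and Eno3 of 0.06 (SE 0.16) on the log2 scale, and none was called. Aldoc, Pgam2 and Eno1b had group means of 0.793 to 2.58 CPM, 0.697 to 2.22 CPM and 1.39 to 1.98 CPM and were not called, although Pgam2 did not overlap between the fractions (log2 fold change -1.69, SE 0.49, edgeR adjusted p = 0.118).

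Around the pathway, the genes that passed the test between the fractions were few. Over all 11791 genes tested, 72 were called higher and 379 lower without the block, and 392 higher and 975 lower with it. Of 10 tested genes of glucose and lactate transport and lactate dehydrogenase 0 were called without the block (median log2 fold change -0.01), and with it Ldha and Slc16a1 were higher and Ldhb lower in HS3A8-high. Ldha, which turns pyruvate to lactate, was at 2166, 2498 and 2346 CPM in HS3A8-high and at 1813, 2098 and 1890.3 CPM in HS3A8-low, without overlap, with 2163 to 2339 CPM in the controls. Its log2 fold change was 0.24 with the block (SE 0.05, edgeR adjusted p = 0.0283; 0.141 without). The lactate carrier Slc16a1 rose by a log2 fold change of 0.32 with the block (adjusted p = 0.0278; 0.0923 without), and Ldhb, at 2.86 to 6.22 CPM in HS3A8-high and 7.48 to 12.3 CPM in HS3A8-low, had one of -1.34 (adjusted p = 0.0267; 0.125 without). The glucose carrier Slc2a3 had a log2 fold change of 0.12 (SE 0.15) and Bsg, the partner of the lactate carriers, one of 0.03 (SE 0.15).

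Of 9 tested regulators of glycolytic flux 1 was called lower and 0 higher, with a median log2 fold change of -0.38. That gene was Txnip, which restrains glucose uptake, at 98.4, 106 and 106 CPM in HS3A8-high, 244, 264 and 174 CPM in HS3A8-low and 122, 198 and 152 CPM in the controls. The fractions did not overlap, and the control mean lay between theirs (log2 fold change -1.18, SE 0.15, edgeR adjusted p = 0.019; 0.00537 to 0.115 with 1 library left out). Hif1a had a log2 fold change of -0.38 (SE 0.17), and Gpd1l, Gpd2 and Pfkfb4 ones of 0.18, 0.13 and -0.27.

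Of 13 tested genes of pyruvate entry into mitochondria 1 was called higher, with a median of 0.15. Dlat, the acetyltransferase subunit of pyruvate dehydrogenase, was at 293, 311 and 298 CPM in HS3A8-high and at 224, 230.5 and 201 CPM in HS3A8-low, with 173, 285 and 291 CPM in the controls. The fractions did not overlap (log2 fold change 0.42, SE 0.08, edgeR adjusted p = 0.0389; 0.0189 with the block), and the unpaired call was lost with any 1 of the 6 libraries left out (adjusted p = 0.0512 to 0.160), with library totals (0.0742) and in 1 fit with the controls (0.278), always in the same direction. Pdhb, Dld, Pdha1 and Pdk3 had log2 fold changes of 0.16, 0.11, 0.15 and 0.20 and were not called. Of 8 pentose phosphate genes 0 were called, paired or not, with a median of 0.09, and Tkt, Taldo1, G6pdx and Pgd had values of 0.17, -0.00, 0.24 and 0.25.

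Of 12 tested targets of hypoxia-inducible factor (HIF) outside glycolysis 2 were called lower and 0 higher, with a median of -0.30, while the glycolysis genes, many of which are HIF targets too, had a median of 0.15. Ddit4, an inhibitor of mTORC1 signalling, was at 6.29, 9.46 and 9.99 CPM in HS3A8-high and 21.6, 32.6 and 22.0 CPM in HS3A8-low, with 9.19 to 16.1 CPM in the controls (log2 fold change -1.60, SE 0.26, edgeR adjusted p = 0.0294). Ndrg1, a stress-responsive gene, was at 5.53, 11.3 and 6.41 CPM against 43.3, 42.1 and 22.7 CPM, with a mean of 18.1 CPM in the controls (log2 fold change -2.26, SE 0.36, edgeR adjusted p = 0.0283). Neither overlapped between the fractions, and with 1 library left out the adjusted p was 0.0392 to 0.139 for Ddit4 and 0.0213 to 0.140 for Ndrg1. Bnip3l, a receptor for the removal of mitochondria, was called lower with the block (log2 fold change -0.47, SE 0.09, adjusted p = 0.0316) but not without it (0.061), and it was also called without it when scaled by library totals (0.0371) and by DESeq2's test (0.0126). Bnip3, Mxi1 and Kdm3a had log2 fold changes of -0.55, -0.03 and -0.12. None of these neighbouring genes was called against the controls.

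**Figure D5:**
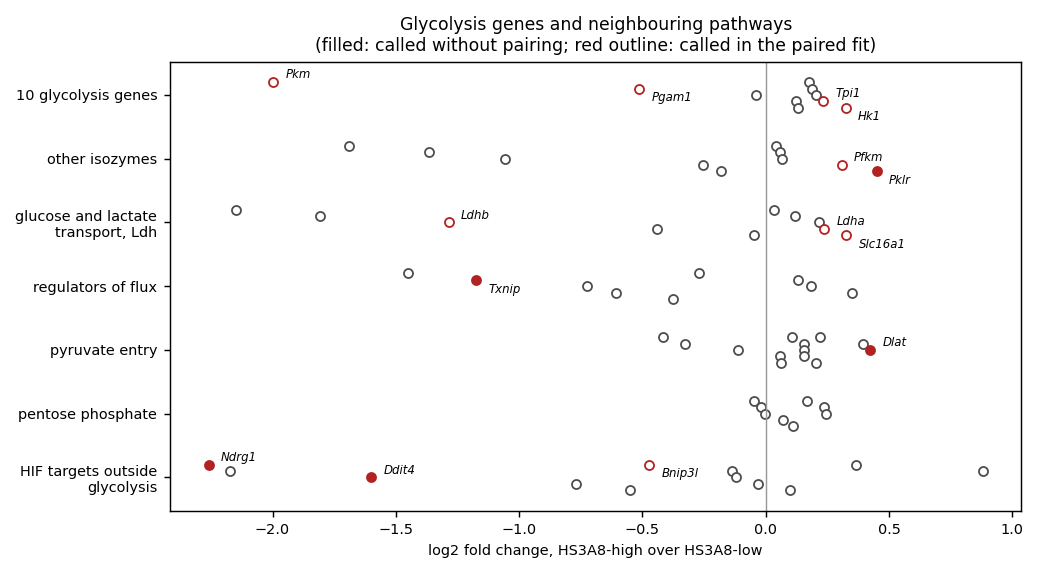
Each point is a tested gene of the 10 glycolysis genes or of a neighbouring list, placed by its log2 fold change of HS3A8-high over HS3A8-low; filled points were called without the replicate block and red outlines mark calls with it. Pklr (0.45) and Dlat (0.42) are filled on the right, and Txnip (-1.18), Ddit4 (-1.60) and Ndrg1 (-2.26) on the left.

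The genes outside the 10 whose levels ran most like the mean of the 10 genes over the 9 libraries were Lta4h, Armcx3, Tpst2, Mboat7 and Gnai2. Likeness was measured as the root mean square difference of centred log2 CPM, which was 0.070 for Lta4h, 0.087 for Armcx3, 0.092 for Tpst2, 0.094 for Mboat7 and 0.095 for Gnai2, against a median of 0.35 over 9322 genes. Among the members Gpi1 was nearest to their own mean (0.12) and Pkm farthest (1.40), followed by Hk1 (0.38). Each member counted equally in that mean, so Pkm, with the widest spread, weighed most on its shape. Lta4h was at 141, 162 and 202 CPM in HS3A8-high and at 167, 182 and 209 CPM in HS3A8-low. By contrast, 7 of the 10 members had higher fitted levels in HS3A8-high. Most like Pkm alone were Ppp1r18, Serpinb1a, Coro1a, Pstpip1 and Arhgef6 (differences of 0.24 to 0.38, median of all genes 1.61).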

How the data were processed

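RNA of sorted MEPs was sequenced on an Illumina platform in 9 libraries, of 3 per group. The authors deposited 1 table of raw read counts per Ensembl gene for the 9 libraries; per the submitters' processing notes the reads were aligned to mm10 with STAR 2.5 and counted with HTSeq 0.6.1, and the annotation release and strand setting are not given in the sources used here. Of 35275 identifiers, 34490 matched GENCODE M21 (GRCm38), which gave symbols, positions and lengths. Counts were tested with edgeR 4.0.16 (R 4.3.3, limma 3.58.1): TMM scaling, filterByExpr, glmQLFit and glmQLFTest on the 2 groups compared, Benjamini-Hochberg adjustment over all genes and a threshold of 0.05. DESeq2 1.42.0, named in the study's methods, was an alternative. CPM values were scaled by TMM over 9 libraries, so a 2-group fit differs slightly from them. The test was also run on simulated counts with a fixed spread and no outlying library, so that run does not cover the replicate differences seen here. BLASTN 2.17.0 found near-identical transcripts (at least 90% identity over 300 bases).

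The study gives the sorted fractions as coming from 3 individual mice; for the controls the source of the replicates is not given in the sources used here, and no source ties a replicate number to a mouse. Pairing of HS3A8-high with HS3A8-low therefore rests on the counts. Deviations from the group means of same-numbered libraries correlated at 0.489, 0.325 and 0.508 over 12130 genes, against -0.467 to 0.123 for unlike numbers. These values depend on each other, since each group mean is of 3 libraries, and replicate 3 of both fractions shared high granulocyte-monocyte markers. The replicate numbers did not pair the controls. The 10 genes and all lists were chosen with earlier results of these data known; every member is named, and of the neighbouring lists each called gene, isozymes of at least 1 CPM and up to 4 more by mean CPM. The 95% intervals come from the edgeR fits and include the spread between libraries, whereas the floor of 3 counts covers counting error only.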

Additional observations from a re-analysis of the deposited data

How the results depend on the processing

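Over the 15 alternatives to the comparison of HS3A8-high with HS3A8-low, the direction of 9 of the 10 glycolysis genes held. Gpi1 reversed to 0.045 without replicate 3 of both fractions (0.042 with the replicate block added), and ranged from -0.10 to 0.070 with 1 library left out, over which Hk1 ranged from 0.21 to 0.45, Pgk1 from 0.12 to 0.26, Pgam1 from -0.77 to -0.088 and Eno1 from 0.067 to 0.21. The paired fit with the block called 4 of the 10 genes and 1367 genes in all, the block with GC and length trends removed 7 and 1930 (GC and length were known for 99.6% of genes), the fit without replicate 3 of both fractions 1 (Pkm) and 748, and DESeq2's test 1229 in all. The block without replicate 3, chosen after seeing the data, called 9 and 3569, with 1 residual degree of freedom per gene. With 1 library left out, 0 to 1 of the 10 genes and 0 to 439 genes in all were called: 42, 53 and 439 without HS3A8-high replicates 1, 2 and 3, and 56, 0 and 244 without HS3A8-low replicates 1, 2 and 3. In the edgeR fit with 0 calls 1900.0 genes had an unadjusted p under 0.05. The cause of these changes was not tested.

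In HS3A8-high against control, DESeq2's test called 143 genes, no count filter 9, 1 fit of all 9 libraries 32, the block 0, leaving out 1 library 0 to 5 and leaving out replicate 3 of both groups 0. Same-numbered controls and HS3A8-high libraries correlated at -0.222, -0.122 and -0.0803, so the numbers do not pair them. With 1 library left out, Pkm ranged from -2.54 to 0.13, Pgk1 from -0.039 to 0.10, Pgam1 from -0.10 to 0.39 and Pfkl from -0.014 to 0.38; without replicate 3 of both groups Pgk1 was -0.049 and Pgam1 -0.18. In HS3A8-low against control (correlations of -0.345, 0.0328 and -0.173), DESeq2's test called 95 genes, 1 of them a member (Pkm, 1.60). Values near 0 changed sign: with library totals, which moved the median of all genes from -0.00 to 0.11, Hk1 was 0.081, Pfkl 0.079, Tpi1 0.024 and Eno1 0.10; with no filter Eno1 was 0.011; with the block Hk1 was 0.058 and Pfkl 0.034, and with GC and length trends also removed Tpi1 was 0.0048 and Gapdh -0.029; without replicate 3 of both groups Hk1 was 0.22 and Pfkl 0.10. With 1 library left out, Hk1 ranged from -0.30 to 0.20, Pfkl from -0.25 to 0.13, Aldoa from -0.10 to 0.11, Gapdh from -0.10 to 0.15 and Eno1 from -0.087 to 0.072.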
